A study of Sesuvium portulacastrum with 18 samples.

Results

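Roots of the coastal plant Sesuvium portulacastrum, a halophyte that thrives on saline soil, were compared at 24 h and 8 h of growth in 250 mM NaCl, to describe how root transcript levels moved between the early and the one-day state. The members are the root transcripts of the 3 libraries at 24 h and the 3 libraries at 8 h, out of 18 libraries in the series. Of 97620 transcripts in the root table, 87369 had a count in at least 1 of the 9 root libraries and 34721 passed the filter on low counts and were tested. The plants were grown in liquid medium from stem cuttings gathered in the wild, no inbred line or clone is named in the labels, and they were 15 days old when the medium was changed. The 24 h and 8 h plants were moved to medium with 250 mM NaCl. The root group at 0 h, which was moved to control medium and harvested at once, gave 3 further libraries. These entered the filter on low counts, the scaling and the estimate of spread. They also gave a level by which transcripts were ranked and with which both times were compared. Each group had 3 biological replicates, per the series' design text, and both groups of the comparison were in salt. No unstressed plants were harvested beside them, so hours in salt, hours since the change of medium, age and the hour of the day cannot be told apart.

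Roots meet salt first. As background, NaCl in the medium lowers the water potential around a root at once, while sodium and chloride build up in the tissue more slowly, and plants answer with osmotic adjustment, with transport of sodium out of the cytosol and into vacuoles, and with changes in growth. Halophytes such as Sesuvium portulacastrum are known for storing sodium in vacuoles as an osmotic solute. Transcripts that answer within hours often differ from those that hold a new level after a day, which is the span covered here.

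The files name each transcript by an ID alone and pair none with a gene name, so the root label could not be checked against marker genes, no pathway could be followed, and the transcripts are described by level, size of change and behaviour over the libraries. The 24 h libraries held 10553707 to 11320405 estimated counts, and the 8 h libraries 8773677 to 13861135. Where a library shows 0 counts of a transcript, counting error alone permits 3, which comes to 0.216 to 0.342 CPM (counts scaled to a common library total) over the 24 h and 8 h libraries. Levels are the deposited normalized CPM, in which CPM were also divided by 1 scaling factor per library. Fold changes are given as log2 of 24 h over 8 h, with adjusted p-values from edgeR's quasi-likelihood test. Log2 CPM correlated at 0.962 to 0.970 between libraries within the 24 h group, at 0.958 to 0.968 within the 8 h group, and at 0.936 to 0.954 between libraries of the 2 groups. Such correlations are taken over transcripts, and transcripts are not replicates.

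Among called rises whose groups did not overlap and whose 8 h libraries averaged 10 or more counts, the largest was that of R_Transcript_21597.p1. Its level was 89.6, 83.3 and 60.8 normalized CPM in the 24 h libraries, against 4.37, 1.92 and 3.90 normalized CPM in the 8 h libraries. The groups lay far apart, with the lowest 24 h library more than 10-fold above the highest 8 h library. It rose by a log2 fold change of 4.52 (adjusted p = 7.53e-06 by edgeR's quasi-likelihood test, SE 0.32). At 0 h it stood at 20.5 ± 7.50 normalized CPM (SD, n = 3), so 8 h was its low point. Its log2 difference from 0 h was -2.60 at 8 h (adjusted p = 0.000229 in edgeR) and 1.92 at 24 h (adjusted p = 0.00133 in edgeR). These comparisons share libraries with each other and with 24 h against 8 h.

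R_Transcript_296530.p1 was the next in size under the same limit on counts, and was low only at 8 h. It had 9.41, 15.2 and 14.2 normalized CPM at 24 h, against 1.66, 1.44 and 0.709 normalized CPM at 8 h, which rested on 108 to 170 counts per library at 24 h and 10 to 15 at 8 h. The groups did not overlap, and it rose by a log2 fold change of 3.40 (adjusted p = 3.57e-05 in edgeR, SE 0.30). Its 0 h level was 8.97 ± 1.22 normalized CPM (SD, n = 3), and the difference between 24 h and 0 h did not pass the test (log2 fold change 0.53, adjusted p = 0.235 in edgeR).

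Among called falls whose groups did not overlap and whose 24 h libraries averaged 10 or more counts, the deepest was that of R_Transcript_207474.p1. Transcripts with fewer counts at 24 h had larger fitted falls. It was at 2.01, 1.79 and 0.666 normalized CPM at 24 h, against 27.1, 44.0 and 59.2 normalized CPM at 8 h. The 3 libraries at 8 h spread over more than 2-fold, and all lay above every 24 h library. It fell by 4.88 log2 units (adjusted p = 3.82e-05 in edgeR, SE 0.38). No count of this transcript was found in any of the 3 libraries at 0 h, while the 24 h libraries still held 23, 18 and 8 counts.

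R_Transcript_293498.p1 was the most even of the 4 at 8 h. It had 0.523, 0.993 and 1.499 normalized CPM at 24 h, against 20.8, 20.6 and 20.6 normalized CPM at 8 h. It fell by 4.33 log2 units (adjusted p = 3.83e-06 in edgeR, SE 0.27). At 0 h its level was 0.901 ± 0.0431 normalized CPM (SD, n = 3), close to the 24 h values, and the difference between 24 h and 0 h did not pass the test (log2 fold change 0.17, adjusted p = 0.83 in edgeR).

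**Figure D1:**
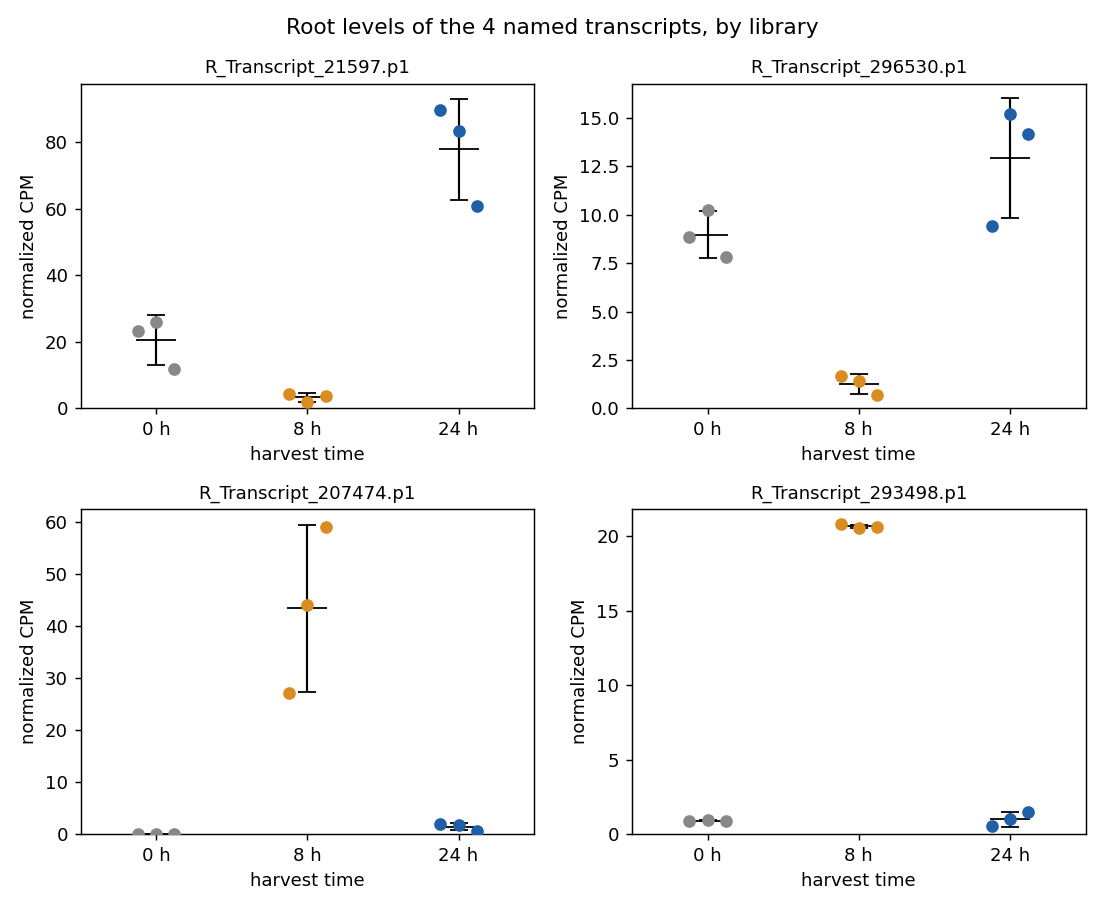
Normalized CPM of the 4 named root transcripts in each library (points) at 0 h in control medium and at 8 h and 24 h in 250 mM NaCl, with the mean and SD of 3 libraries (bars); each panel has its own axis from 0. R_Transcript_21597.p1 and R_Transcript_296530.p1 are lowest at 8 h, and R_Transcript_207474.p1 and R_Transcript_293498.p1 are highest there.

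Over all tested transcripts, 3975 of 34721 (11.4%) differed between 24 h and 8 h at an adjusted p under 0.05, of which 1853 (5.34%) rose and 2122 (6.11%) fell. Which direction was more frequent depended on the scaling: with library size alone 1986 rose and 1804 fell, among 3790. With DESeq2's size factors 1905 rose and 2076 fell. The median log2 fold change of all tested transcripts was -0.0141 with TMM, the trimmed mean of M values used for scaling, and 0.0169 with library size alone. Without replicate 2 at 8 h the count was 2042 (858 up, 1184 down), without replicate 1 at 24 h 2496, and without replicate 2 at 24 h 2637. The same fit called 13.5% of root transcripts for 8 h against 0 h and 7.38% for 24 h against 0 h, and the shoot fit called 27.8% of 40220 shoot transcripts for 24 h against 8 h. The shoot IDs form a separate set, so the difference between tissues was not tested.

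Of the 3975 transcripts called between 24 h and 8 h, 1818 changed by at least 2-fold. The rises had a median log2 fold change of 0.87, with quartiles at 0.60 and 1.28. The falls had a median of -1.01, with quartiles at -1.55 and -0.69. Falls outnumbered rises more among the larger changes: 736 rises (2.12% of tested transcripts) and 1082 falls (3.12%) reached 2-fold, and 113 rises and 283 falls reached 4-fold. With library size alone 791 rises and 991 falls reached 2-fold. A test against a minimum change (edgeR's glmTreat at 1.5-fold) called 977 transcripts (2.81%), 353 up (1.02%) and 624 down (1.8%). That split kept its direction in each fit without 1 of the 24 h or 8 h libraries, from 190 up and 365 down without replicate 2 at 8 h to 417 up and 634 down without replicate 1 at 8 h.

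**Figure D2:**
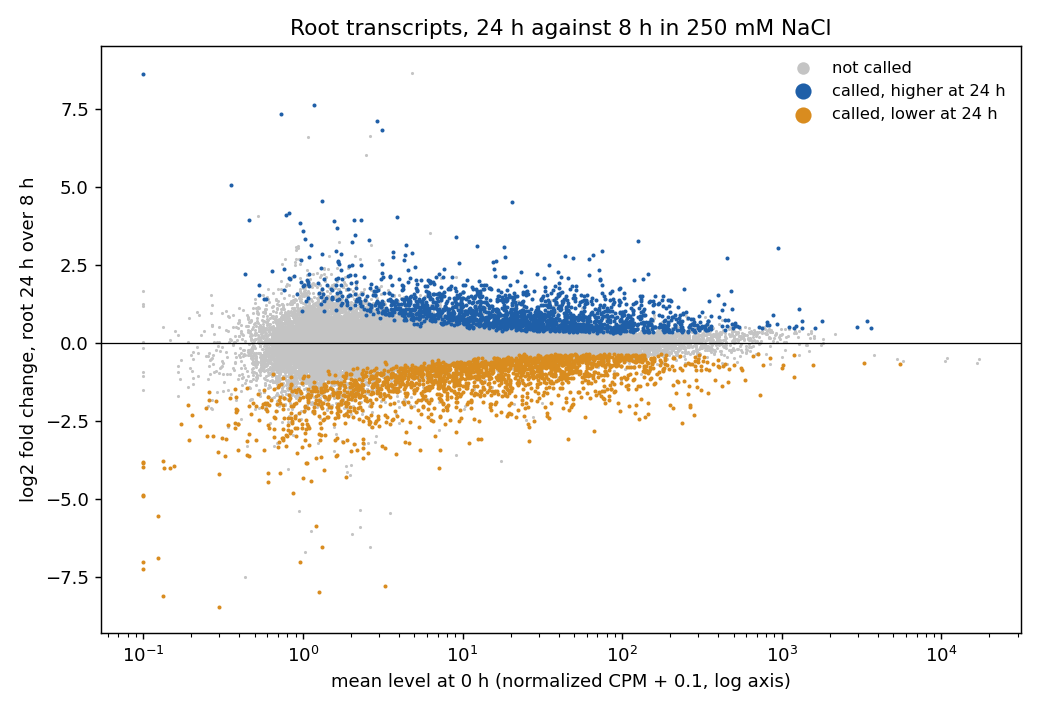
Log2 fold change of root 24 h over 8 h (vertical axis) for 34721 tested transcripts against their mean level at 0 h (horizontal log axis, normalized CPM with 0.1 added); blue points were called higher at 24 h, orange points called lower, grey points not called. Among transcripts low at 0 h the called falls outnumber the called rises.

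The level at 0 h, a group outside the contrast, went with the direction of the calls. The tested transcripts were ranked by their mean 0 h level and split into 5 bins of equal size. In the bin lowest at 0 h (up to 1.45 normalized CPM), 55 transcripts rose and 246 fell between 24 h and 8 h, and in the next bin 106 rose and 236 fell. In the middle bin 302 rose and 384 fell. In the 2 highest bins the rises were more frequent, with 582 up and 549 down from 8.76 to 28.9 normalized CPM and 808 up and 707 down above that. In each of the 5 bins the more frequent direction was the same with library size alone and with DESeq2's size factors. The share called grew along the bins, at 4.33%, 4.93%, 9.88%, 16.3% and 21.8%, while the median standard error of the log2 fold change shrank from bin to bin, at 0.49, 0.36, 0.26, 0.17 and 0.13. The filter on low counts needs counts in as many libraries as 1 group holds, so a transcript with almost no counts at 0 h could enter the test only through its 8 h or 24 h libraries, and the counts of the lowest bin include transcripts that were tested because 1 of these groups was high.

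The called transcripts held a sizeable part of the root RNA. The 1853 transcripts that rose made up 12.7%, 12.9% and 12.7% of all counts in the 24 h libraries, against 7.63%, 7.13% and 7.95% in the 8 h libraries. In the 0 h libraries the same transcripts held 11.8%, 11.3% and 11.6%. The 2122 transcripts that fell made up 7.85%, 7.05% and 8.17% in the 24 h libraries, against 12.4%, 15.1% and 14.4% in the 8 h libraries, and 9.15%, 8.79% and 9.12% at 0 h. The groups were chosen by their difference between 24 h and 8 h, so these shares are a description. In both sets the 24 h libraries stood on the far side of 0 h from the 8 h libraries, at a smaller distance. Choosing transcripts by their difference between 24 h and 8 h by itself favours opposite sides of 0 h. In bulk tissue, fewer cells of a type and less RNA per cell cannot be told apart.

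**Figure D3:**
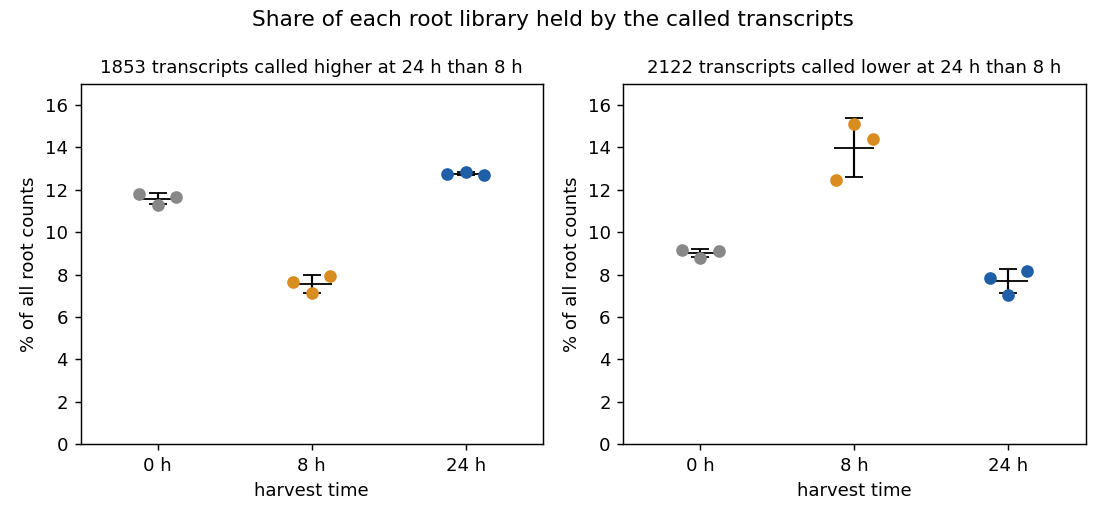
Percent of all counts in each root library (points; bars are mean and SD of 3 libraries) held by the transcripts called higher at 24 h than at 8 h (left) and called lower (right), at 0 h in control medium and at 8 h and 24 h in 250 mM NaCl. The 8 h libraries lie lowest on the left (7.13% to 7.95%) and highest on the right (12.4% to 15.1%).

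In each class of size the median level at 8 h was the lowest of the 3 times for rises and the highest for falls. The classes were chosen by the change between 24 h and 8 h, so the order of these times was fixed. Such a choice also favours low 8 h values among rises and high ones among falls, so the medians are a description. The 1117 rises under 2-fold had median levels of 32.1, 25.2 and 37.8 normalized CPM at 0 h, 8 h and 24 h. The 623 rises between 2-fold and 4-fold had medians of 10.9, 4.77 and 12.4 normalized CPM. For the 102 rises between 4-fold and 16-fold the medians were 4.21, 0.538 and 3.29 normalized CPM, so the 24 h median stayed below that of 0 h. The larger rises were found at lower levels than the smaller ones. Small changes are harder to call at low levels, as the standard errors of the bins show, so the threshold by itself favours this order.

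Among the falls, the 1040 under 2-fold had medians of 29.5, 38.9 and 24.7 normalized CPM at 0 h, 8 h and 24 h. The 799 between 2-fold and 4-fold had medians of 6.83, 12.4 and 4.8 normalized CPM, and the 259 between 4-fold and 16-fold had 1.61, 6.97 and 1.13 normalized CPM. The comparisons of 24 h with 0 h and of 8 h with 0 h share libraries with 24 h against 8 h, and their values stand beside it only as a description. The median log2 difference from 0 h of all transcripts that rose was -0.62 at 8 h and 0.24 at 24 h, and of all that fell 0.68 at 8 h and -0.29 at 24 h, beside 0.0046 and -0.0077 for all tested transcripts.

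A few calls had no count in 1 group. Of the rises, 5 had 0 counts in all 8 h libraries and averaged 1.30 to 4.61 CPM at 24 h, which makes them at least 4.6-fold to at least 16.3-fold higher against a floor of 3 counts per library. Only 4 of the 5 had a count in all 3 libraries at 24 h, and the bounds use the mean of the 3. Of the falls, 7 had 0 counts in all 24 h libraries and averaged 0.653 to 3.90 CPM at 8 h, which makes them at least 2.38-fold to at least 14.2-fold lower at 24 h. With these transcripts at their bounds the medians over all rises and all falls were the same 0.87 and -1.01. Over all root transcripts, tested or not, 363 of them had counts in all 3 libraries at 24 h and none at 8 h, and 432 had counts in all 3 at 8 h and none at 24 h, but their median was 2 counts per library in both sets, and only 4 and 9 of them were tested.

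Abundant transcripts changed too, by small amounts. Of the 100 tested transcripts of highest mean level at 0 h, 18 rose and 10 fell (28.0% called, beside 11.4% of all tested transcripts and 21.8% in the highest bin), and 2 of the rises and 2 of the falls reached 2-fold. Of the 1000 highest, 144 rose and 86 fell. The precision of the test grows with the level, as the standard errors of the bins show, so more frequent calls among abundant transcripts do not by themselves mean larger changes.

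Of the 10 rises with the highest 0 h level, 1 exceeded 2-fold. It had 766, 729 and 784 normalized CPM at 24 h, against 363, 363 and 352 normalized CPM at 8 h (adjusted p = 4.8e-05 in edgeR, log2 fold change 1.08, SE 0.10). The groups did not overlap and the 8 h libraries were almost equal. At 0 h this transcript had 1287 ± 80.1 normalized CPM (SD, n = 3), so its 24 h level lay between those of 8 h and 0 h (adjusted p = 0.00104 in edgeR for 24 h against 0 h, log2 fold change -0.76). The most abundant of the 10 at 0 h showed a similar order, with 1975 ± 143 normalized CPM at 24 h and 1406 ± 121 at 8 h (SD, n = 3 each), beside 3609 ± 327 at 0 h (adjusted p = 0.0208 in edgeR, log2 fold change 0.49 between 24 h and 8 h, SE 0.12). This order was not shared by all 10, as some stood above their 0 h level at 24 h. Ranking by a high 0 h level by itself favours transcripts that are lower at the later times. The log2 fold changes of the 10 ran from 0.48 to 1.08.

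Of the 10 falls with the highest 0 h level, 2 exceeded 2-fold. The larger had 682, 699 and 741 normalized CPM at 24 h, against 1967, 2515 and 2193 normalized CPM at 8 h (adjusted p = 1.71e-05 in edgeR, log2 fold change -1.65, SE 0.13). Its 0 h level was 728 ± 90.2 normalized CPM (SD, n = 3), and 24 h against 0 h did not pass the test (log2 fold change -0.04, adjusted p = 0.891 in edgeR). The other had 1037, 1205 and 1338 normalized CPM at 24 h, against 2149, 2676 and 2823 at 8 h (adjusted p = 0.000504 in edgeR, log2 fold change -1.09, SE 0.15). It too was near its 0 h level of 1187 ± 141 normalized CPM (SD, n = 3) at 24 h. A return to the 0 h level was not shared by all 10 falls, as some stood below it at 24 h. The third by 0 h level had 1574 ± 107 normalized CPM at 0 h and 996 ± 71.5 at 24 h (SD, n = 3 each). Its log2 fold change for 24 h against 0 h was -0.66 (adjusted p = 0.00628 in edgeR).

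The most abundant transcript that fell stood at 5223, 4751 and 6519 normalized CPM at 24 h, against 8632, 8820 and 8964 normalized CPM at 8 h (adjusted p = 0.00975 in edgeR, log2 fold change -0.68, SE 0.14). Its 8 h libraries were close together and its 24 h libraries spread more, without overlap. One of the abundant falls went on in 1 direction over the times, with 3289 ± 271 normalized CPM at 0 h, 1725 ± 230 at 8 h and 1106 ± 99.7 at 24 h (SD, n = 3 each; adjusted p = 0.00947 in edgeR, log2 fold change -0.64 between 24 h and 8 h, SE 0.14). Another had the same order, with 1022 ± 219, 800 ± 24.4 and 494 ± 149 normalized CPM (SD, n = 3 each). Its step from 0 h to 8 h did not pass the test (log2 fold change -0.36, adjusted p = 0.281 in edgeR).

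Of the 10 transcripts with the highest 0 h level, 3 were called between 24 h and 8 h and the other 7 were not. The 7 had log2 fold changes from -0.64 to -0.37 with standard errors from 0.34 to 0.41 and adjusted p-values from 0.371 to 0.593 in edgeR. They varied between libraries of 1 group more than between the groups. Together they held 4.09%, 6.98% and 4.52% of all counts in the 24 h libraries, against 11.3%, 6.51% and 4.33% in the 8 h libraries. Each of the 7 was highest in replicate 2 at 24 h and in replicate 1 at 8 h, with the highest 8 h library 2.42-fold to 3.13-fold above the lowest. At 0 h they held 4.76%, 9.05% and 6.56% of the counts. The 8 h library in which they were highest was also the smallest, with 8773677 counts, and without it 3495 transcripts were called in all.

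**Figure D4:**
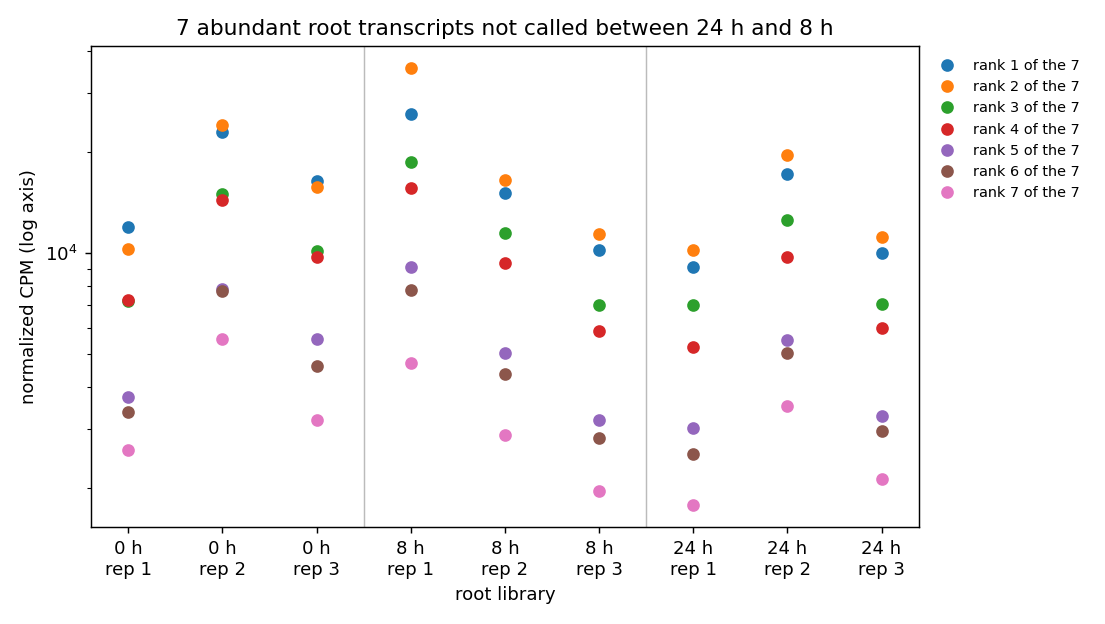
Normalized CPM (log axis) of the 7 transcripts that were among the 10 most abundant at 0 h and were not called between 24 h and 8 h, in each of the 9 root libraries (points; ranks by 0 h level; grey lines part the times, 0 h in control medium, 8 h and 24 h in 250 mM NaCl). The 7 go up and down together between libraries of the same time, and each is highest in replicate 1 at 8 h and in replicate 2 at 24 h.

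Measures of the whole library did not separate the times. The 100 most abundant transcripts of each library held 15.1%, 18.2% and 15.5% of counts at 24 h, against 21.7%, 17.3% and 15.1% at 8 h (p = 0.6 by a two-sided exact permutation test of 3 against 3 libraries, which cannot go below 0.1). Thinned to 8773677 counts, the 24 h libraries held 61023, 58718 and 61025 transcripts with a count, against 61122, 61123 and 60578 in the 8 h libraries (p = 0.5 by the same exact permutation test). The ranges overlapped in both measures. Among 5 such measures the Benjamini-Hochberg adjusted values of the exact permutation tests lay between 0.875 and 0.9. The spread between replicates was similar at both times, with a median SD of log2(normalized CPM + 0.5) over tested transcripts of 0.213 at 24 h and 0.230 at 8 h.

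Nearly all called transcripts had groups that did not overlap. The 3 libraries at 24 h lay wholly above or below the 3 at 8 h for 29.5% of all tested transcripts and for 3932 of the 3975 called ones (98.9%). Whether a transcript passed the test was more sensitive to leaving out single libraries. A fit without 1 library at 24 h or 8 h has a smaller group, which by itself makes a call harder to reach. Such fits were also filtered anew, with 36341 to 36696 transcripts tested. In every one of the 6 fits that left out 1 library at 24 h or 8 h, 1792 of the 3975 transcripts (45.1%) were called in the same direction, 753 up and 1039 down, and their median size of log2 fold change was 1.2, against 0.94 for all 3975. All 4 named transcripts were called in each of these fits, which their choice by size in the same counts made likely. Of the 1818 calls of at least 2-fold, 1134 were in this group (426 up, 708 down). DESeq2 and limma-voom both called 3556 of the 3975 (89.5%) in the same direction.

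**Figure D5:**
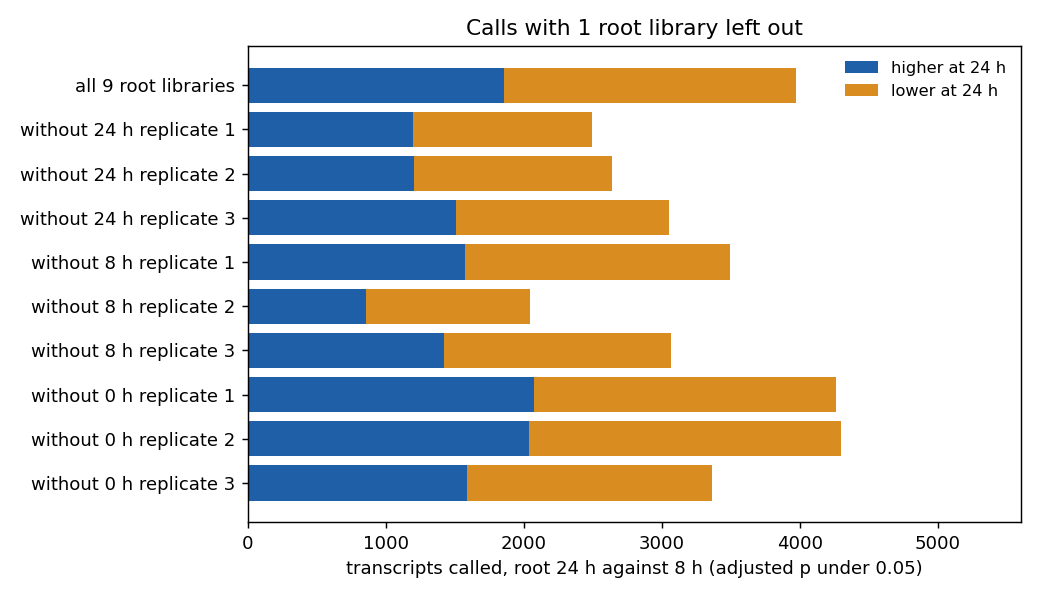
Number of root transcripts called between 24 h and 8 h (horizontal axis, adjusted p under 0.05; blue higher and orange lower at 24 h) with all 9 root libraries and with each library left out in turn. The count is 3975 with all libraries and lowest, 2042, without replicate 2 at 8 h.

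Some IDs are parts of 1 assembled transcript, as they share a number and differ only in the ending. The 34721 tested IDs carried 33526 numbers, of which 1076 had 2 or more tested IDs. The 3975 called IDs carried 3944 numbers. On 30 numbers 2 or more IDs were called, all in 1 direction, and on 0 numbers in opposite directions. On 86 numbers 1 ID was called and the others were not. Of the 2271 IDs on shared numbers 6.47% were called, beside 11.4% of all tested IDs. With the counts of each number summed first, 3984 numbers were called.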

How the data were processed

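RNA was sequenced from roots and shoots, and the root libraries are used here. The authors deposited estimated counts per transcript as whole numbers (rounding them changed nothing), and a normalized signal per transcript. Tools listed in the submitters' processing notes are Trimmomatic, kallisto (0.45) and also edgeR (3.40.1), with no step assigned to any; the assembly, any genome build and the use of strand are not given in the sources used here. Values of the deposited normalized signal were checked to be CPM over a constant for each library, the TMM factor of all transcripts with a count. Every column of the tables used matched 1 library (0 left over); shoot counts entered only a like fit for 1 background value.

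In R 4.3.3, transcripts were kept by filterByExpr (edgeR 4.0.16, minimum count 10), which left between 98.9% and 99.2% of each root library's counts. A quasi-likelihood model with TMM scaling was fitted to all 9 root libraries without covariates, each time having its own mean (6 residual degrees of freedom, biological coefficient of variation 0.184). The contrast was 24 h minus 8 h, two-sided, with Benjamini-Hochberg adjustment over all tested transcripts and a threshold of 0.05. A standard error is the size of the log2 fold change over the root of F. DESeq2 1.42.0 and limma 3.58.1 were alternatives. Permutation tests used scipy 1.17.1. The fit was tested on simulated counts with known changes, in 4 runs with 200 of 34721 transcripts changed in each. Of the 4-fold changes 75.2% were recovered, and of the 2-fold changes 35.8%. Of the calls 7.11% were false, somewhat above the threshold. These shares depend on the fraction changed, which was far below the 11.4% called between 24 h and 8 h, so they do not carry over to these data.

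Named by rule were the 2 largest rises and 2 largest falls among called transcripts whose groups did not overlap, with a mean of 10 or more counts in the lower group (3630 qualified); others are described by rank of 0 h level. The files pair no ID with a name. Members and rules were chosen with earlier results of these data known. Counts of closely similar transcripts may be divided among IDs.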

Additional observations from a re-analysis of the deposited data

How the results depend on the processing

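The number of transcripts called between 24 h and 8 h was 3975. With 1 library left out it ran from 2042 to 4300, with 858 to 2073 rises and 1184 to 2266 falls, and the lowest values came without replicate 2 at 8 h. Adding a covariate, the leading component of what remained in each library after its group mean was removed, gave 6104 (3009 up), and a threshold of 0.01 on the adjusted p, stricter by construction, gave 1869 (778 up, 1091 down). The covariate was drawn from these same libraries and takes up the largest part of their spread within groups by construction. The larger count is therefore no evidence of further changes. What the component stands for was not tested. DESeq2 gave 4321, limma-voom 3793, no filter 5214 and only the 6 libraries of the contrast 4143. No transcript called with all libraries was called in the opposite direction in these settings. The settings draw on the same libraries, so this was likely from the start and is no separate support. The glmTreat count of 977 was 298 at 2-fold, and 555 to 1051 with 1 library left out. The log2 fold changes of the 4 named transcripts kept their direction and stayed under an adjusted p of 0.05 in all 17 settings run for them. These 4 were chosen for the size of their change in the same counts, so this outcome was likely in advance.

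The difference in the share of the 100 most abundant transcripts, -1.81 percentage points for 24 h minus 8 h, ran from -3.27 to 0.0144 with 1 library left out, the last without replicate 1 at 8 h. That in detected transcripts, -686, ran from -1070 to 83.0, the last without replicate 2 at 24 h.

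The labels do not say that shared replicate numbers pair plants, so the main fit left pairing out. Same-numbered 24 h and 8 h libraries correlated in their deviations at -0.0192, 0.0229 and 0.152, which does not settle whether they are paired. With the replicate block 4153 were called. Some of the 24 h and 8 h libraries correlated best with their own number and others did not. Fold changes of transcripts low at 0 h were less precise: in the bin lowest at 0 h the median standard error was 0.49, against 0.13 in the highest. How much of this came from depth was not tested.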

Other observations

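A transcript outside the tested set had 508, 603 and 1 counts in the 24 h libraries and 0 in all 8 h and all 0 h libraries. It was picked after its values were seen. The filter on low counts removed it, since only 2 libraries held 10 or more of its counts. The library at 24 h with 1 count (replicate 3) held 11320405 counts, the most of the 24 h group.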
